A study of Mus musculus with 6 samples.

Results

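CCT, also called TRiC, is the chaperonin of the cytosol, and its 8 subunits are encoded by Tcp1, Cct2, Cct3, Cct4, Cct5, Cct6a, Cct7 and Cct8. These 8 genes were taken by symbol from the 54100 gene identifiers of the count table. The RNA came from fibro-adipogenic progenitors (FAPs), the mesenchymal cells that lie between muscle fibres, sorted as Pdgfra-positive cells from the plantaris of C57BL/6 mice. The groups are 3 sham and 3 overloaded libraries, from tubes of 1000 sorted cells. Neither group carries a named transgene, drug or mutant allele. The sources used here do not state age, sex, how and for how long the muscle was loaded, or whether animals were pooled. Nor do they state that replicates are different mice, so each p describes variation among these libraries, which may be technical. The comparison asks how chaperonin transcripts differ between FAPs of loaded and of sham muscle.

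A CCT particle is a pair of stacked rings, each with 1 copy of the 8 subunits, around a cavity in which a newly made protein folds. Closing of the cavity is driven by ATP. Actin and tubulin depend on CCT to reach their native state, and so do several proteins with WD40 propellers, such as G protein beta subunits and the mitotic activator Cdc20. Prefoldin and phosducin-like proteins assist delivery or folding of substrates, and tubulin cofactors take over tubulin chains that leave the cavity. Within a ring Tcp1, Cct4, Cct2 and Cct5 are neighbours along an arc, and Cct7, Cct8, Cct6a and Cct3 make up the rest. Cct3, Cct6a and Cct8 encode subunits that bind ATP weakly.

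Because the subunit genes rose together, 4 of their promoters are shown: those of Cct2 and Cct6a, with the highest fitted ratios, of Cct8, with the lowest, and of Tcp1, with the least secure call. Each is a RefSeq window on GRCm38.p6 from 250 bases before to 50 bases after an annotated transcript start, 300 bases long, written 5′ to 3′ on the strand of the gene. Capitals mark every match, on either strand, to CCAAT (the CCAAT box), CCGGAA (a core bound by ETS factors), GAANNTTC or TTCNNGAA (units of the heat shock element), CACGTG (an E-box) or the CArG box.
Cct6a, chr5:129787106-129787405, plus strand: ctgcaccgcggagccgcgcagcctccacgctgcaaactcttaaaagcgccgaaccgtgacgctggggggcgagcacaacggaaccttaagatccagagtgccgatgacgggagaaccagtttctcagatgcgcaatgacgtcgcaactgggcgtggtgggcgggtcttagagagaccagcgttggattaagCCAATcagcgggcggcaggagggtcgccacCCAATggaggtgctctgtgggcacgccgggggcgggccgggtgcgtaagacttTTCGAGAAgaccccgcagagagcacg
Cct2, chr10:117063803-117064102, minus strand: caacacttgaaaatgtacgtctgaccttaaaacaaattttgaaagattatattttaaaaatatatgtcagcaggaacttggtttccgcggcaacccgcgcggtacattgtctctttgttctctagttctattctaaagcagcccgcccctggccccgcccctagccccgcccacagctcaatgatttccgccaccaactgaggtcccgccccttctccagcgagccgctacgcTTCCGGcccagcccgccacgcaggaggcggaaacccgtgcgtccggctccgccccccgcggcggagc
Cct8, chr16:87495820-87496119, minus strand: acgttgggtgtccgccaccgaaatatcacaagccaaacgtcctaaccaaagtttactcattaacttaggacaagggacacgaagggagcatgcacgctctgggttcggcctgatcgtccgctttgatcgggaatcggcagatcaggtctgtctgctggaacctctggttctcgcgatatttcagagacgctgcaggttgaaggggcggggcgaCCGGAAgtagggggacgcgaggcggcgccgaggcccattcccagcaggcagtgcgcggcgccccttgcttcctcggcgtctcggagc
Tcp1, chr17:12916079-12916378, plus strand: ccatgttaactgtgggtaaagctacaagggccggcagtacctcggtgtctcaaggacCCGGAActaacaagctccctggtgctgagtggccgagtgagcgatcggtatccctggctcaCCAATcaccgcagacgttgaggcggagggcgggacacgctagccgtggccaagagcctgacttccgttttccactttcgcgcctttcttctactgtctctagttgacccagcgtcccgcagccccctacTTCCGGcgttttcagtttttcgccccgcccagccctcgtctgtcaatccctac

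The RefSeq table matched 7 of the 8 genes, all but Cct4, with 9 windows in all. CCGGAA was found in 5 of the 9 windows, 1 each of Cct2, Cct5, Cct7, Cct8 and Tcp1, and in 14.9% of 32851 promoter windows of the same length. A CCAAT box was found in 4 windows, those of Cct3, Cct6a, Cct7 and Tcp1, against 37.4% of all windows. The heat shock unit TTCNNGAA was found in 2 windows, of Cct5 and Cct6a (8.52% of all windows), and GAANNTTC in 1 window of Cct2 that is not printed (7.86%). CACGTG (7.15% of all windows) and the CArG box (1.63%) had 0 matches. No match overlapped a match to another motif. The other promoters were not matched to these on base composition, and a match is a run of letters, not a site shown to be bound.

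All 8 CCT subunit genes rose in overloaded FAPs, by 1.78-fold to 2.69-fold. All 8 passed the filter on low counts, and edgeR's quasi-likelihood test called each of them higher at a Benjamini-Hochberg adjusted p under 0.05. In the same fit 15% of the 7207 genes tested were called higher, 14.3% lower and 29.3% in either direction. In all 8 genes every overloaded library lay above every sham library, a separation seen in 21.2% of the genes tested, while the opposite separation was seen in 20.3%. The median log2 ratio of overloaded to sham was 1.12 over the 8 subunits and -0.02 over all genes tested.

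Levels are given as CPM, the count divided by the library's total in tested genes, scaled by edgeR's TMM factor and expressed per 1000000. The sum of the 8 genes was 710.2, 626 and 674 CPM in sham libraries 1 to 3. In overloaded libraries 1 to 3 it was 1489.9, 1353 and 1761 CPM. The means were 670.2 ± 42.1 and 1535 ± 207 CPM (SD, n = 3 in each group), a ratio of 2.29. In bulk RNA of sorted cells, more transcript per cell and more cells that express a gene cannot be told apart.

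**Figure D1:**
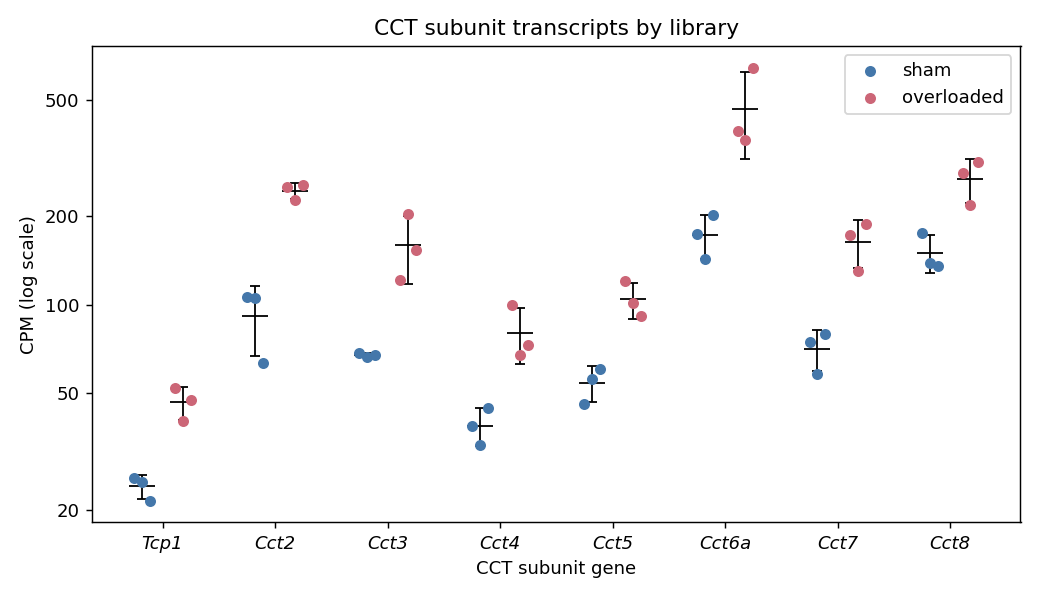
CPM (log scale) of each CCT subunit gene in the 3 sham and 3 overloaded libraries. Points are libraries, ticks are group means and bars are the SD, and in every gene the 3 overloaded points lie above the 3 sham points.

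Of the genes along the arc that holds Tcp1, Cct2 had the highest fitted ratio. Cct2 (ENSMUSG00000034024, chromosome 10, 117051001 to 117063814, minus strand, all positions on GRCm38) encodes the beta subunit. Its level was 106, 106 and 63.2 CPM in sham and 251, 227 and 257 CPM in overloaded FAPs. Sham library 3 was low and the overloaded libraries were close together. The means of 91.7 ± 24.6 and 245 ± 15.8 CPM gave a log2 ratio of 1.43 ± 0.24 (SE), adjusted p = 2.67e-05 in edgeR.

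Cct4 (ENSMUSG00000007739, chromosome 11, 22990519 to 23003780, plus strand) encodes the delta subunit. Its level was 38.7, 33.2 and 44.4 CPM in sham and 100.03, 67.7 and 72.9 CPM in overloaded FAPs. Overloaded library 1 stood above the other two. The test gave a log2 ratio of 1.04 ± 0.29 (SE), adjusted p = 0.00619 in edgeR.

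Cct5 (ENSMUSG00000022234, chromosome 15, 31590800 to 31601804, minus strand) encodes the epsilon subunit, mutated in a hereditary sensory neuropathy. Its level was 45.8, 56.0 and 60.5 CPM in sham and 120.2, 102 and 91.4 CPM in overloaded FAPs, and the groups did not overlap. The test gave a log2 ratio of 0.95 ± 0.26 (SE), adjusted p = 0.00529 in edgeR.

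Tcp1 (ENSMUSG00000068039, chromosome 17, 12915701 to 12925067, plus strand) encodes the alpha subunit and gave the complex one of its names. It had the fewest counts of the 8, 46 against 127 over the sham and the overloaded libraries. Its level was 25.8, 24.9 and 21.5 CPM in sham and 51.9, 40.1 and 47.4 CPM in overloaded FAPs. The groups did not overlap, but the call was the least secure of the 8. The test gave a log2 ratio of 0.96 ± 0.33 (SE), adjusted p = 0.0285 in edgeR, and in 8 of 16 other settings the adjusted p was above 0.05, over a range from 0.0186 to 0.249. Its log2 ratio stayed between 0.66 and 1.07 in those settings. Tcp1 lost its call without sham replicate 2, sham replicate 3, overloaded replicate 1 or overloaded replicate 3.

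The rest of the ring begins here with Cct6a, the subunit with the most counts. Cct6a (ENSMUSG00000029447, chromosome 5, 129786998 to 129846371, plus strand) encodes the zeta subunit, and GENCODE M21 types the gene as a processed transcript. Its level was 175, 143 and 202 CPM in sham and 391, 365 and 643 CPM in overloaded FAPs. Overloaded library 3 was well above the other two. The means of 173 ± 29.4 and 467 ± 154 CPM gave a log2 ratio of 1.42 ± 0.23 (SE), adjusted p = 2.43e-05 in edgeR. Without overloaded replicate 3 the log2 ratio was 1.14, against 1.277 for Cct3, so the order of these 2 genes rests on that library, and it also turned with the background covariate described last.

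Cct3 (ENSMUSG00000001416, chromosome 3, 88297116 to 88321767, plus strand) encodes the gamma subunit. Its level was 68.7, 66.4 and 67.3 CPM in sham and 121, 203 and 154 CPM in overloaded FAPs. The sham libraries were nearly equal, while the overloaded ones were spread, with library 2 the highest. The test gave a log2 ratio of 1.23 ± 0.25 (SE), adjusted p = 0.000334 in edgeR.

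Cct7 (ENSMUSG00000030007, chromosome 6, 85451514 to 85468475, plus strand) encodes the eta subunit. Its level was 74.5, 58.1 and 79.4 CPM in sham and 173, 130.4 and 189 CPM in overloaded FAPs. Library 2 was the lowest of its group in both groups. The test gave a log2 ratio of 1.20 ± 0.24 (SE), adjusted p = 0.000349 in edgeR.

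Cct8 (ENSMUSG00000025613, chromosome 16, 87483326 to 87495873, minus strand) encodes the theta subunit. Its level was 176, 139 and 136 CPM in sham and 281, 218 and 307 CPM in overloaded FAPs. The lowest overloaded library was above the highest sham library. The test gave a log2 ratio of 0.83 ± 0.22 (SE), adjusted p = 0.00422 in edgeR, the lowest ratio of the 8 in this fit.

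Whether subunits rose to different extents was looked at through the share of each in the summed CCT level of a library. Cct8 made up 24.8%, 22.2% and 20.2% of the sum in sham and 18.9%, 16.1% and 17.4% in overloaded libraries. It was the only subunit of the 8 whose shares did not overlap, with means of 22.4 ± 2.33% and 17.5 ± 1.36%. The exact two-sided permutation test gave p = 0.1, the smallest that 3 against 3 libraries can give, and 0.8 after Benjamini-Hochberg adjustment over the 8 subunits. Cct6a had the largest gain in mean share, from 25.8 ± 3.69% to 29.9 ± 5.73%, or 4.13 percentage points. Without overloaded replicate 3 that gain was 0.83 points. Cct2 went from 13.7 ± 3.89% to 16.1 ± 1.29%, and Cct5 from 8.12 ± 1.45% to 6.92 ± 1.53%. In both of these genes the groups overlapped. Tcp1 was at 3.60 ± 0.39% and 3.05 ± 0.40%, Cct4 at 5.78 ± 0.71% and 5.29 ± 1.31%, Cct3 at 10.1 ± 0.47% and 10.6 ± 3.81%, and Cct7 at 10.5 ± 1.25% and 10.7 ± 0.99%. For the 7 subunits other than Cct8 the exact permutation p was 0.2 to 1 before adjustment and 0.8 to 1 after it. No change in share passed the test at this number of libraries.

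**Figure D2:**
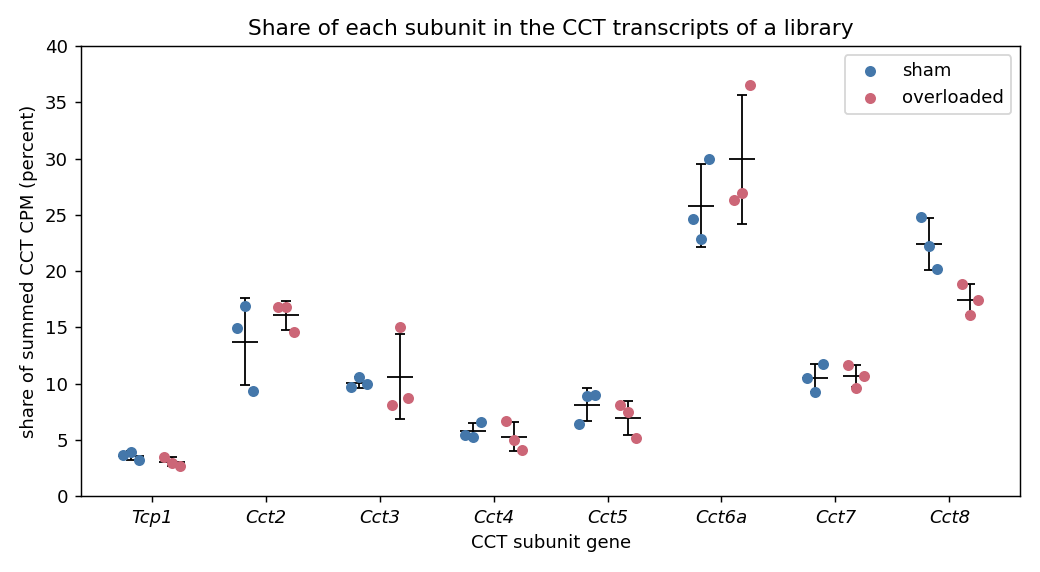
Share of each subunit gene in the summed CPM of the 8 CCT genes, in percent, for each library (points), with the group mean (tick) and SD (bar). Cct8 is the gene whose groups do not overlap, with means of 22.4% in sham and 17.5% in overloaded libraries.

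Levels of different genes were also set side by side per kilobase (kb) of annotated exon, while the shares above were not divided by length. In sham libraries Cct8 (48.7 ± 7.25 CPM per kb), Cct6a (47.8 ± 8.12) and Cct2 (35.8 ± 9.62) were highest, and neighbours among them differed by less than their summed SDs. Cct5 followed at 19.6 ± 2.73 CPM per kb. Cct3 (10.6 ± 0.19), Cct7 (10.4 ± 1.65) and Cct4 (9.22 ± 1.34) did not differ beyond their spread, and Tcp1 was lowest at 4.78 ± 0.45 CPM per kb. In overloaded libraries Cct6a (129 ± 42.4), Cct2 (95.8 ± 6.19) and Cct8 (87.0 ± 14.7) again led and did not differ beyond their spread. Cct5 (37.7 ± 5.29), Cct3 (25.0 ± 6.48), Cct7 (24.2 ± 4.44), Cct4 (19.1 ± 4.13) and Tcp1 (9.24 ± 1.18 CPM per kb) followed. The protocol cited in the labels reads transcripts near their 3′ end, so dividing by exon length can understate long genes. The annotated exons of Cct7 (6778 bases) and Cct3 (6370 bases) are far longer in sum than those of Cct2 (2557 bases).

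Reads of other genes could enter some of these counts. Exons of Cct6a, Cct7, Cct8 and Tcp1 overlap exons of another gene on the opposite strand, and the sources used here do not state the strand setting of the counting. Over the 6 libraries Psph held 67 counts against 1595 for Cct6a, and Pradc1 held 20 against 586 for Cct7. Usp16 held 488 against 1022 for Cct8 and was not called (log2 ratio 0.37, edgeR adjusted p = 0.28). Mrpl18 held 63 and Acat3 0 against 173 for Tcp1. These partners each held fewer counts than the subunit gene they overlap. Acat2, which shares 445 bases with Tcp1 transcripts at 98.7% identity, held 95 counts. Of the processed pseudogenes of Cct3, Cct4 and Cct7, Gm12180, a copy of part of Cct7, held 3 counts and the others 0. Of the testis forms, Cct8l1 had 0 counts and Cct6b 5 against 3 (sham against overloaded).

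Genes of the proteins that assist CCT come next, and their counts are read against the 15% of all tested genes called higher. Of the 6 prefoldin genes 5 were tested, 1 rose and 4 were not called, with a median log2 ratio of 0.35. Pfdn2, which encodes a prefoldin subunit, rose from 236 ± 16.8 to 344 ± 57.8 CPM (log2 ratio 0.54 ± 0.21 SE, edgeR adjusted p = 0.0474). That call held in 6 of 16 other settings and was lost without sham replicate 2, sham replicate 3, overloaded replicate 1 or overloaded replicate 2. Pfdn5 had 65.9, 145 and 59.2 CPM in sham and 50.02, 65.2 and 37.0 CPM in overloaded FAPs, with sham library 2 far above the rest (log2 ratio -0.79 ± 0.32 SE, edgeR adjusted p = 0.0602). Pfdn5 was called lower in 5 of 16 other settings, and its log2 ratio ran from -1.01 to 0.03. Vbp1 (0.35), Pfdn4 (-0.06) and Pfdn6 (0.64), given as log2 ratios, had edgeR adjusted p of 0.323, 0.934 and 0.39. Pfdn1, with 15 against 44 counts, did not pass the filter.

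Of the 4 phosducin-like genes 3 were tested, 1 rose and 2 were not called. Txndc9, which encodes a phosducin-like protein that binds CCT, stood at 140.3, 91.3 and 121 CPM in sham and 173, 172 and 214 CPM in overloaded FAPs. The groups did not overlap (log2 ratio 0.65 ± 0.23 SE, edgeR adjusted p = 0.0312), and the call was lost without sham replicate 2, sham replicate 3 or overloaded replicate 3. Pdcl3 (log2 ratio 0.79 ± 0.34 SE, edgeR adjusted p = 0.0787) and Pdcl (log2 ratio -0.45 ± 0.30 SE, edgeR adjusted p = 0.288) were not called, and Pdcl2 had 0 counts.

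Among substrates, most of the tested tubulin genes rose. Of 14 tubulin genes 7 were tested, of which 5 rose, 1 fell and 1 was not called, with a median log2 ratio of 0.87. Among all genes tested 15% were called higher and 14.3% lower. Tubb5, a widely expressed beta-tubulin, stood at 365, 272 and 397 CPM in sham and 802, 1173 and 1564 CPM in overloaded FAPs (log2 ratio 1.77 ± 0.23 SE, edgeR adjusted p = 1.06e-06). Every overloaded library was above the sham range. The alpha-tubulin gene Tuba1b had a log2 ratio of 1.37 ± 0.24 (SE), adjusted p = 4.48e-05 in edgeR. The beta-tubulin gene Tubb2a had a log2 ratio of 1.65 ± 0.31 (SE), adjusted p = 0.000803 in edgeR. Tubb4a, a beta-tubulin best known from the nervous system, was the 1 that fell, from 32.5 ± 9.93 to 5.68 ± 2.61 CPM (log2 ratio -2.42 ± 0.48 SE, edgeR adjusted p = 0.000268). Tuba1a (log2 ratio 0.69) and Tubb6 (0.87) were the others that rose, and Tuba1a was not called without sham replicate 3 or overloaded replicate 3.

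Of 6 actin genes 3 were tested and 2 rose, where 15% of all genes tested were called higher. Actb, the main cytoplasmic actin, stood at 5623, 3526 and 3376 CPM in sham and 4979, 7361 and 6972 CPM in overloaded FAPs. Sham library 1 was above overloaded library 1, so the groups overlapped (log2 ratio 0.62 ± 0.21 SE, edgeR adjusted p = 0.0265). Actb was not called without sham replicate 2, sham replicate 3, overloaded replicate 2 or overloaded replicate 3. Acta2, the smooth muscle actin, went from 15.1 ± 6.83 to 321 ± 101 CPM (log2 ratio 4.36 ± 0.32 SE, edgeR adjusted p = 2.2e-11). Actg1, the other cytoplasmic actin, stood at 17.2, 20.7 and 1.35 CPM in sham and 26.9, 32.6 and 30.1 CPM in overloaded FAPs, with 1 count in sham library 3. It was not called (log2 ratio 1.26 ± 0.49 SE, edgeR adjusted p = 0.0547), but was called in 5 of 15 other settings, over log2 ratios of 0.68 to 2.28. Counts were 9 against 5 for Acta1, 0 against 1 for Actg2 and 0 against 0 for Actc1. Actin and tubulin genes share long stretches of coding sequence with their paralogues, and the sources used here do not state how reads with several matches were counted.

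Of 18 listed clients with WD40 propellers or other folds 12 were tested, 2 rose, 0 fell and 10 were not called, near the 15% of all tested genes called higher, with a median log2 ratio of 0.01. Gnb2, a G protein beta subunit, rose from 108 ± 23.6 to 181 ± 27.8 CPM (log2 ratio 0.73 ± 0.23 SE, edgeR adjusted p = 0.0171), a call lost without sham replicate 2, sham replicate 3 or overloaded replicate 1. Ccne1, encoding the G1/S cyclin E1, rose from 4.18 ± 3.73 to 21.1 ± 4.13 CPM (log2 ratio 2.15 ± 0.59 SE, edgeR adjusted p = 0.00599). Of 7 tubulin cofactor genes 4 were tested, with a median log2 ratio of 0.23. Tbcb, which acts on alpha-tubulin after CCT, was the 1 that rose, from 43.1 ± 7.53 to 105 ± 29.4 CPM (log2 ratio 1.29 ± 0.28 SE, edgeR adjusted p = 0.000803).

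**Figure D3:**
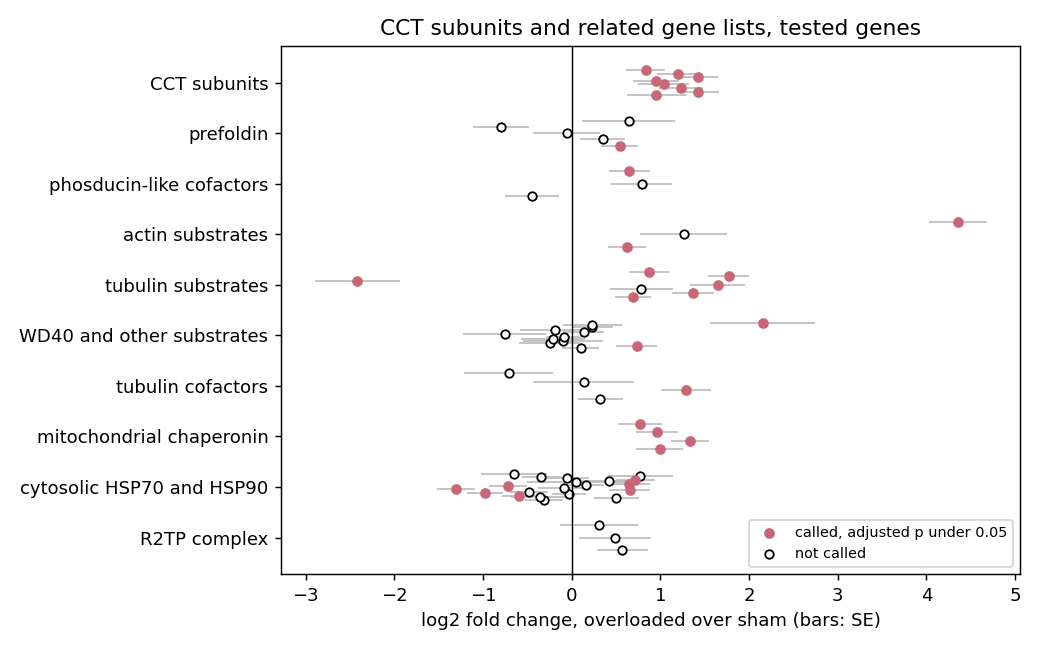
Log2 ratio of overloaded to sham libraries (bars are the SE) for the tested genes of the CCT list and of the related lists. All 8 CCT subunits and all 4 tested genes of the mitochondrial chaperonin list lie to the right of 0, while cytosolic HSP70 and HSP90 genes lie on both sides of it.

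The chaperonin of mitochondria, a separate complex of another family, was measured beside CCT. The list held 5 genes, for this chaperonin, its HSP70 partners and the mitochondrial HSP90 Trap1. Of these 4 were tested and all 4 rose, with a median log2 ratio of 0.98, where 15% of all genes tested were called higher. Hspe1, encoding the lid HSP10, stood at 189, 228 and 265 CPM in sham and 441, 647 and 636 CPM in overloaded FAPs (log2 ratio 1.34 ± 0.22 SE, edgeR adjusted p = 1.93e-05). Hspd1, encoding the barrel HSP60, stood at 60.1, 58.1 and 59.2 CPM in sham and 155, 75.2 and 121 CPM in overloaded FAPs (log2 ratio 0.99 ± 0.27 SE, edgeR adjusted p = 0.0052). Its sham libraries were nearly equal, overloaded library 2 was nearest to them, and the call was lost without overloaded replicate 1. Exons of Hspd1 and Hspe1 overlap on opposite strands by 112 bases. Hspa9, the mitochondrial HSP70, rose (log2 ratio 0.96 ± 0.24 SE, edgeR adjusted p = 0.00234). Its nucleotide exchange factor Grpel1 rose too (log2 ratio 0.77 ± 0.25 SE, edgeR adjusted p = 0.0192), a call lost without sham replicate 2, sham replicate 3 or overloaded replicate 2. Trap1, with 13 against 28 counts, did not pass the filter.

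The list for the cytosolic HSP70 and HSP90 systems holds 21 genes, among them cochaperones and the heat shock factors Hsf1 and Hsf2, which are not chaperones. Of these 21 genes 20 were tested, 3 rose, 4 fell and 13 were not called. These counts are near the shares of all tested genes, 15% higher and 14.3% lower, with a median log2 ratio of -0.07. Dnajb1, an HSP40 of the heat shock response, stood at 498, 377 and 457 CPM in sham and 141, 183 and 216 CPM in overloaded FAPs (log2 ratio -1.31 ± 0.22 SE, edgeR adjusted p = 2.66e-05). Hsph1, an HSP110 that exchanges nucleotide on HSP70, stood at 412, 583 and 510.0 CPM in sham and 262, 239.5 and 263 CPM in overloaded FAPs (log2 ratio -0.98 ± 0.20 SE, edgeR adjusted p = 0.000493). For both genes all sham libraries lay above all overloaded ones. Hsp90aa1, an inducible HSP90, fell as well (log2 ratio -0.72 ± 0.21 SE, edgeR adjusted p = 0.0104), a call lost without sham replicate 2 or overloaded replicate 2. Hspa1a, an inducible HSP70, fell (log2 ratio -0.59 ± 0.20 SE, edgeR adjusted p = 0.0218), a call lost without sham replicate 2, sham replicate 3, overloaded replicate 1 or overloaded replicate 2. Hspa1a has a near-identical copy, Hspa1b (log2 ratio -0.03, not called), so its count is uncertain.

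The cochaperones Ptges3 (p23, log2 ratio 0.72), Dnaja2 (an HSP40, 0.65) and Stip1 (HOP, which links HSP70 to HSP90, 0.64) were the 3 that rose. Stip1 was called in 7, Dnaja2 in 10 and Ptges3 in 14 of 16 other settings, and all 3 lost the call without sham replicate 3. Stip1 also lost it without sham replicate 1, overloaded replicate 2 or overloaded replicate 3, Dnaja2 without sham replicate 2, overloaded replicate 1 or overloaded replicate 3, and Ptges3 without overloaded replicate 2. Of 6 genes listed for the R2TP assembly complex and its partners Tti1 and Telo2, 3 were tested and edgeR called 0. Of these tested genes 0 had an unadjusted p under 0.05 in edgeR, and DESeq2 or limma called 0. Their log2 ratios were 0.57 for Ruvbl2, 0.49 for Pih1d1 and 0.31 for Tti1. Counts of the others were 9 against 18 for Ruvbl1, 19 against 34 for Rpap3 and 21 against 24 for Telo2. The chaperonin-like genes Mkks (27 against 41), Bbs10 (1 against 0) and Bbs12 (4 against 0) did not pass the filter.

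Over the 6 libraries the level of each subunit correlated with the mean of the other 7 at r = 0.869 (Cct3) to 0.972 (Tcp1), a description of 6 points that fall into 2 groups. The genes most like the mean of the subunits in log2(CPM + 1), among 6968 with at least 10 CPM on average, were Prg4 (r = 0.999), Ltbp2 (0.998), Lman1 (0.997), Ckap4 (0.996) and Cav1 (0.996). Prg4 encodes lubricin, Ltbp2 a latent TGF-beta binding protein, Lman1 a cargo receptor of the early secretory pathway, Ckap4 a membrane protein of the endoplasmic reticulum and Cav1 caveolin-1. An r of at least 0.9 was reached by 668 of these candidates. The choice by r fixes that these genes are higher in overloaded libraries, and r does not measure the size of a rise. Prg4 went from 710 ± 108 to 7089 ± 1781 CPM and Ltbp2 from 0 to 25.1 ± 7.84 CPM. Lman1 went from 207 ± 14.4 to 515 ± 68.5 CPM, Ckap4 from 199 ± 34.1 to 759 ± 110 CPM and Cav1 from 152 ± 8.94 to 396 ± 34.7 CPM.

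Some facts of the libraries moved with the groups, and others overlapped between them. Total counts were 500402 to 754456 in sham and 850857 to 1124210 in overloaded libraries, and with all libraries thinned to the smallest total 7 of 8 subunits were called, all but Tcp1. All 10 FAP markers were detected in all 6 libraries. Of these 2 rose and 5 fell, where 15% of all genes tested were called higher and 14.3% lower. The FAP markers summed to 58184 to 75580.4 CPM in sham and 72912 to 85058 CPM in overloaded libraries, a sum that mixes rises and falls. Col1a1 and Col3a1 rose, Col3a1 from 16961 ± 2169 to 42939 ± 4139 CPM. Dcn, Gsn, Pi16, Dpp4 and Cd34 fell, Dcn from 20310 ± 1611 to 8208 ± 476 CPM. Pdgfra, the sort marker, went from 857 ± 143 to 594 ± 172 CPM without overlap but was not called (edgeR adjusted p = 0.0624). Lum and Ly6a were not called either. Leukocyte markers summed to 15.8 to 27.0 CPM in sham and 1.92 to 20.1 CPM in overloaded libraries, with 0 counts of Adgre1, Lyz2 and C1qa, 11 against 9 of Ptprc and 12 against 6 of Csf1r (sham against overloaded). Satellite cell markers summed to 17.2 to 41.5 and 8.10 to 28.8 CPM, with 0 counts of Myod1, 0 against 6 of Pax7 and 52 against 31 of Itga7, which fell (edgeR adjusted p = 0.0442). Pericyte and smooth muscle markers summed to 47.7 to 95.9 and 10.4 to 63.5 CPM, and Schwann cell markers to 5.73 to 27.0 and 1.16 to 6.73 CPM. Erythroid markers ranged widely within each group, at 1.43 to 131 and 2.51 to 27.8 CPM. Endothelial markers summed to 122 to 219 and 33.5 to 74.0 CPM. Tek, which held most of these counts in sham, fell (233 against 74 counts), and Flt1 was not called (44 against 43). The other endothelial markers were low and untested: Pecam1 (13 against 10), Cdh5 (6 against 7), Kdr (9 against 12), Emcn (4 against 6), Cldn5 (0 against 3) and Egfl7 (2 against 1). Myofibre markers summed to 38.7 to 68.4 and 23.1 to 32.4 CPM. The 6 tenocyte markers summed to 158 to 195 and 3396 to 4397 CPM, mostly Thbs4 (187 against 10660 counts), while the tendon genes Tnmd (8 against 17) and Scx (4 against 21) were low. The exact permutation test gave p = 0.1, the smallest possible, for the endothelial, myofibre and tenocyte sums (0.22 after Benjamini-Hochberg adjustment). For the other sums of cell type markers it gave p of 0.2 to 0.6 (0.367 to 0.6 after adjustment). The part of these cell types in the rise of the CCT subunits was not tested.

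Genes of the cell cycle rose in the same libraries, where 15% of all genes tested were called higher. Of 14 S phase genes 9 were tested and 7 rose, and the list summed to 108 to 162 CPM in sham and 362 to 629 CPM in overloaded libraries. Of 14 genes of G2 and M phase 7 were tested and all 7 rose, with sums of 40.4 to 51.5 and 312 to 711 CPM. These 7 passed the count filter through the overloaded libraries, as with Cdk1 (1 against 200 counts, sham against overloaded) and Cenpa (3 against 105). Some S phase genes did too, such as Mcm2 (1 against 81) and Rrm2 (8 against 223). For such genes the filter largely fixed the direction, so these counts of genes cannot be read against the 15%. The sums take in all 14 genes of a list, tested or not. Overloaded library 3, with the highest summed CCT level, also had the highest of both sums. Cct2, Cct6a, Cct7 and Cct8 were highest in that library, Tcp1, Cct4 and Cct5 in overloaded library 1 and Cct3 in overloaded library 2. In overloaded libraries 1 and 2 the CCT sum was 1490 and 1353 CPM. There the S phase sum was 379 and 362 CPM, and the G2 and M phase sum 312 and 341 CPM. For both cell cycle sums the exact permutation test gave p = 0.1, the smallest possible, and 0.22 after Benjamini-Hochberg adjustment. The part of cycling cells in the rise of the CCT subunits was not tested.

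Counts in olfactory and vomeronasal receptor genes, used as a measure of background reads, made up 781 to 1819 per 1000000 in sham and 232 to 1092 in overloaded libraries. With that share as a covariate edgeR called 3 of 8 subunits, where 6.91% of all genes tested were called higher. By edgeR's test across all genes these were Cct2 (log2 ratio 1.65, adjusted p = 0.0022), Cct3 (1.49, adjusted p = 0.00325) and Cct6a (0.97, adjusted p = 0.0378). The other 5 kept log2 ratios above 0, from 0.66 for Cct8 to 0.88 for Tcp1, with adjusted p from 0.11 to 0.249 in edgeR. In the same fit 1 of the 4 tested mitochondrial chaperonin genes and 2 of the 7 tested tubulin genes were called higher.

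**Figure D4:**
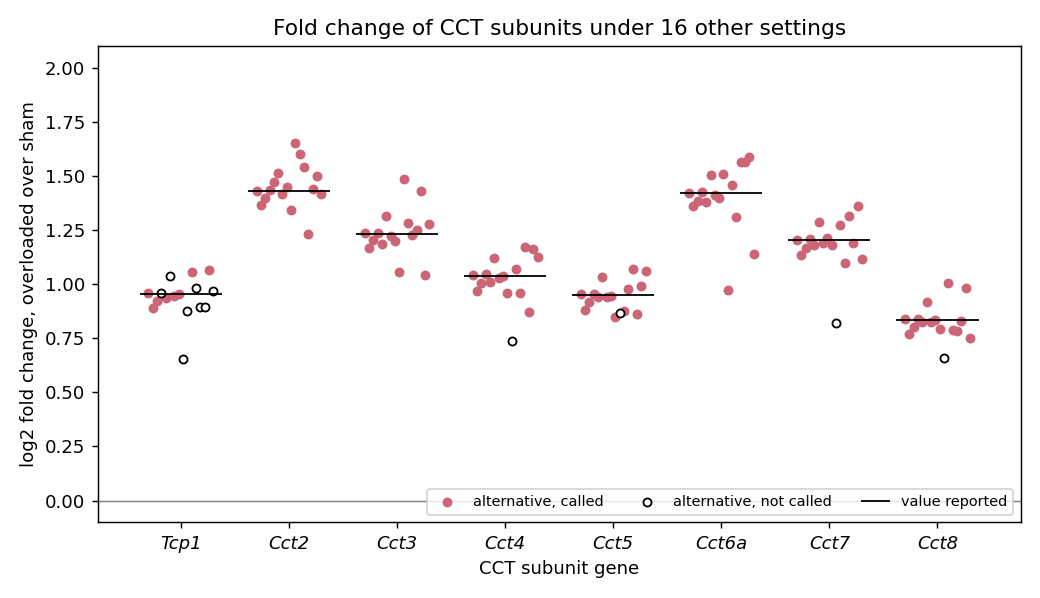
Log2 ratio of overloaded to sham for each CCT subunit gene under 16 other settings, as points, with the value reported as a line. All points lie above 0, and Cct2, Cct3 and Cct6a were called in all 16 settings.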

How the data were processed

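The authors deposited 1 table of raw counts per gene for 6 libraries, with totals of 500402 to 1124210. The submitters' processing notes name GRCm38 and, in no stated role, DESeq2 1.28.1, featureCounts 2.0.1, HISAT2 2.2.1 and Trim Galore 0.6.6. The sources used here do not state whether molecular identifiers were counted. The counting intervals treat every count as independent, and they are too narrow if 1 molecule was counted more than once.

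Counts were tested here with edgeR 4.0.16 in R 4.3.3 (filterByExpr with a minimum count of 10 and total of 15, TMM scaling, robust quasi-likelihood F test, Benjamini-Hochberg adjustment over 7207 genes, called at an adjusted p under 0.05). The SE is the size of the log2 ratio divided by the square root of F. Shares and marker sums were compared by exact permutation. The members, lists, tests and naming rule were chosen with earlier results of these data known. The rule named all 8 subunits, up to 4 called genes of each related list in order of adjusted p, every gene of lists under 7 genes, and the 5 genes most alike; other genes were named after their values were seen. Positions and exon lengths are from GENCODE M21, which holds all 54100 identifiers. Copies were sought with BLAST 2.17.0 (at least 100 bases at 90% identity). Libraries of a group differed by more than sampling noise (chi-square per degree of freedom 4.30 to 7.77). The 16 alternatives used DESeq2 1.42.0, limma 3.58.1 and edgeR.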

Additional observations from a re-analysis of the deposited data

How the results depend on the processing

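All 8 CCT subunits kept a log2 ratio above 0 in all 16 alternatives, and of 128 values 116 kept their side of the threshold. The other 12 lost the call: 8 of Tcp1 (DESeq2, no count filter, thinning, background covariate, and without sham replicate 2, sham replicate 3, overloaded replicate 1 or overloaded replicate 3) and 1 each of Cct4, Cct5, Cct7 and Cct8 with the background covariate. With that covariate 3 subunits were called higher, and 498 genes higher and 449 lower where 1084 and 1027 were called without it; the cause was not tested. Leaving out each library in turn gave 7 to 8 subunits, 853 to 1073 genes higher and 742 to 960 lower. With the replicate number as a block, 8 subunits, 1043 genes higher and 993 lower were called. Libraries sharing a number did not deviate together beyond correlations of 0.016, 0.014 and 0.022, so the numbers are not taken as pairs, although each library correlated best with its own number. Scaling by library size only moved the median of all genes to -0.09 and gave 971 higher and 1157 lower. Tcp1 had the fewest counts of the 8 subunits, 173 in all, and the part of depth in its lost calls was tested only by thinning.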

Other observations

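Some genes of the related lists did not pass the filter but had unequal counts. Tubb2b, a beta-tubulin best known from developing neurons, had 3 counts over the sham and 75 over the overloaded group, and the ratio per library size was 17.8 (exact 95% counting interval 5.86 to 88.3). Cdc20, the mitotic activator folded by CCT, had 11 counts in the overloaded group and 0 in sham. That is 2.61-fold above a floor of 3 counts over the sham group, a value that does not allow for counting error in the 11. Mlst8, a WD40 subunit of the mTOR complexes, had 9 counts against 1 in sham, and its ratio of 6.41 has an interval (0.89 to 281) that includes equal levels. The intervals pool the libraries of a group and leave out the spread between them. These genes were picked after their values were seen.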
